A study of Mus musculus with 16 samples.

Results

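Integrins are the cell surface receptors through which an epithelial cell holds on to the basement membrane. The genes described here are the 10 integrin subunits that the intestinal epithelium is known to use, chosen by gene symbol: 6 α subunits (Itga1, Itga2, Itga3, Itga5, Itga6 and Itgav) and 4 β subunits (Itgb1, Itgb4, Itgb5 and Itgb6), out of 54532 genes in the count table and 27 integrin subunit genes examined. All 10 were found, all were over 1 CPM (counts scaled to the TMM-adjusted library size) in each of the 16 cultures, and all passed the filter on low counts in every comparison; the lowest count of any of them in any culture was 67.

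The 16 poly-A RNA-seq libraries came from mouse jejunal enteroids, which are epithelial spheroids grown from isolated crypts, in 4 groups of 4 cultures from 4 mice each. MYO5BΔIEC enteroids carried Vil-CreERT2;Myo5b-flox/flox, in which tamoxifen removes the motor protein myosin Vb, and received vehicle. A further group of the same genotype received Compound-1, an agonist of the lysophosphatidic acid receptor LPAR5, at 100 nM for 2 days. MYO5B(G519R) enteroids carried Vil-CreERT2;Myo5b-flox/G519R, so that 1 point-mutated allele is left after recombination, and their treatment label is None. The control cultures are labelled only Control, with treatment None; the study's methods derive them from uninduced flox/flox enteroids given ethanol, whereas its legend calls them healthy littermates. All cultures were differentiated in medium without Wnt ligands and epidermal growth factor. 4-OH-tamoxifen (1 µM) is named for the MYO5B-deficient enteroids and was given 24 h before that medium, so tamoxifen and loss of MYO5B cannot be told apart against the controls. The Vil1 promoter limits Cre to the intestinal epithelium.

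An integrin is a heterodimer of 1 α and 1 β chain, and the pair decides the ligand. Itgb4 pairs only with Itga6, binds laminin and anchors keratin filaments through plectin in hemidesmosomes. Itgb1 is the common partner of Itga1 and Itga2 (collagen receptors), Itga3 and Itga6 (laminin receptors), Itga5 (fibronectin receptor) and Itgav, and Itgav also pairs with Itgb5 and Itgb6, which bind vitronectin and latent transforming growth factor β. Integrins are taken up and returned to the surface through Rab11 recycling endosomes, the compartment on which myosin Vb works.

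Libraries held 27804968 to 40101729 counts, so that 3 counts correspond to 0.0748 to 0.108 CPM. Control culture 1 stood apart from the other controls: its log expression correlated with theirs at r = 0.930 to 0.939, against at most 0.990 among the other 3, and its summed enterocyte markers were 3615 CPM against 13271 to 16493 CPM. Results for the members that turn on it are also given without it. The defining fibroblast markers Col3a1, Dcn and Lum were at 0 in all 16 cultures, and the summed fibroblast list of 7 genes stayed at or under 0.956 CPM, the immune list at or under 9.71 CPM, the endothelial list at or under 1.76 CPM and the muscle list at or under 1.35 CPM. Targeted Myo5b, whose reads outside the deleted exons can remain, was at 159.7, 229.6, 191 and 176 CPM in control cultures 1 to 4 and at 135, 109, 169 and 101 CPM in MYO5BΔIEC (log2 fold change -0.55 ± 0.19 SE, adjusted p = 0.0503); the groups overlapped.

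Per unit of gene length, Itgb1 was the most abundant integrin in every group. In control enteroids its mean was 91.6 ± 5.22 FPKM (fragments scaled to gene length and library depth by the authors; SD, n = 4), followed by Itga6 at 22.1 ± 2.20, Itga2 at 12.3 ± 1.20, Itga3 at 11.6 ± 1.78 and Itgb4 at 7.76 ± 1.79 FPKM. Itgb5 (5.47 FPKM), Itgb6 (3.88), Itga1 (2.22), Itgav (1.60) and Itga5 (0.770) formed the lower end. Only the steps from Itgb1 to Itga6 and from Itga6 to Itga2 separated without overlap of cultures; every later neighbour in the control order overlapped with the next. In MYO5BΔIEC the order changed to Itgb1 (83.2), Itgb4 (37.9), Itga3 (31.1), Itga6 (28.1) and Itga2 (14.3 FPKM). In MYO5B(G519R) enteroids Itgb4 (30.7), Itga6 (29.4) and Itga3 (28.3 FPKM) followed Itgb1 (79.9 FPKM). Itgb4, Itga3 and Itga6 overlapped with their neighbours among themselves in both models and all 3 were clear of Itga2 there, whereas in controls Itgb4 was below Itga6 in all 4 cultures.

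**Figure D1:**
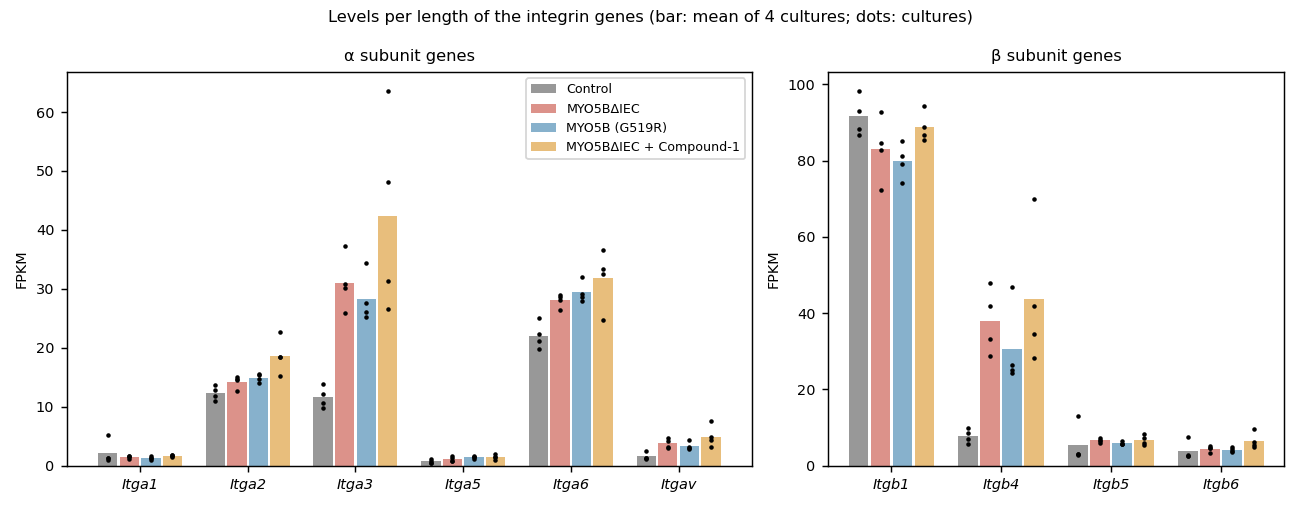
Mean FPKM (bars, from 0) of the 6 α genes (left) and 4 β genes (right) in the 4 groups, with each culture as a dot. Itgb1 is the tallest bar in every group, and Itgb4 and Itga3 go from 7.76 and 11.6 FPKM in controls to 37.9 and 31.1 FPKM in MYO5BΔIEC.

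The first question was which integrin genes differ when MYO5B is lost or mutated. Adjusted p-values below come from edgeR's quasi-likelihood test with Benjamini-Hochberg adjustment over all genes tested, and log2 fold changes are given with their standard error. Itgb4, Itga3 and Itgav rose in both models, Itga6 and Itga5 passed the test in MYO5B(G519R) enteroids only, and Itga1, Itga2, Itgb1, Itgb5 and Itgb6 did not pass in either; the differences between the models were themselves tested and did not pass (below). Thus 3 of 10 members were called higher in MYO5BΔIEC, where 13.5% of the 17951 genes tested were called higher, and 5 of 10 in MYO5B(G519R), where the background was 13.1% of 17829 genes. None was called lower. The median log2 fold change of the members was 0.30 in MYO5BΔIEC (all genes, -0.01) and 0.32 in MYO5B(G519R) (all genes, -0.05). Without overlap of cultures, 4 members were higher in MYO5BΔIEC (background 13.0%), and in MYO5B(G519R) 5 were higher (13.6%) and 1 was lower (13.8%). Both comparisons use the same 4 control cultures, so they are not independent. In bulk RNA a change in the number of cells of a type and a change in RNA per cell cannot be told apart.

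**Figure D2:**
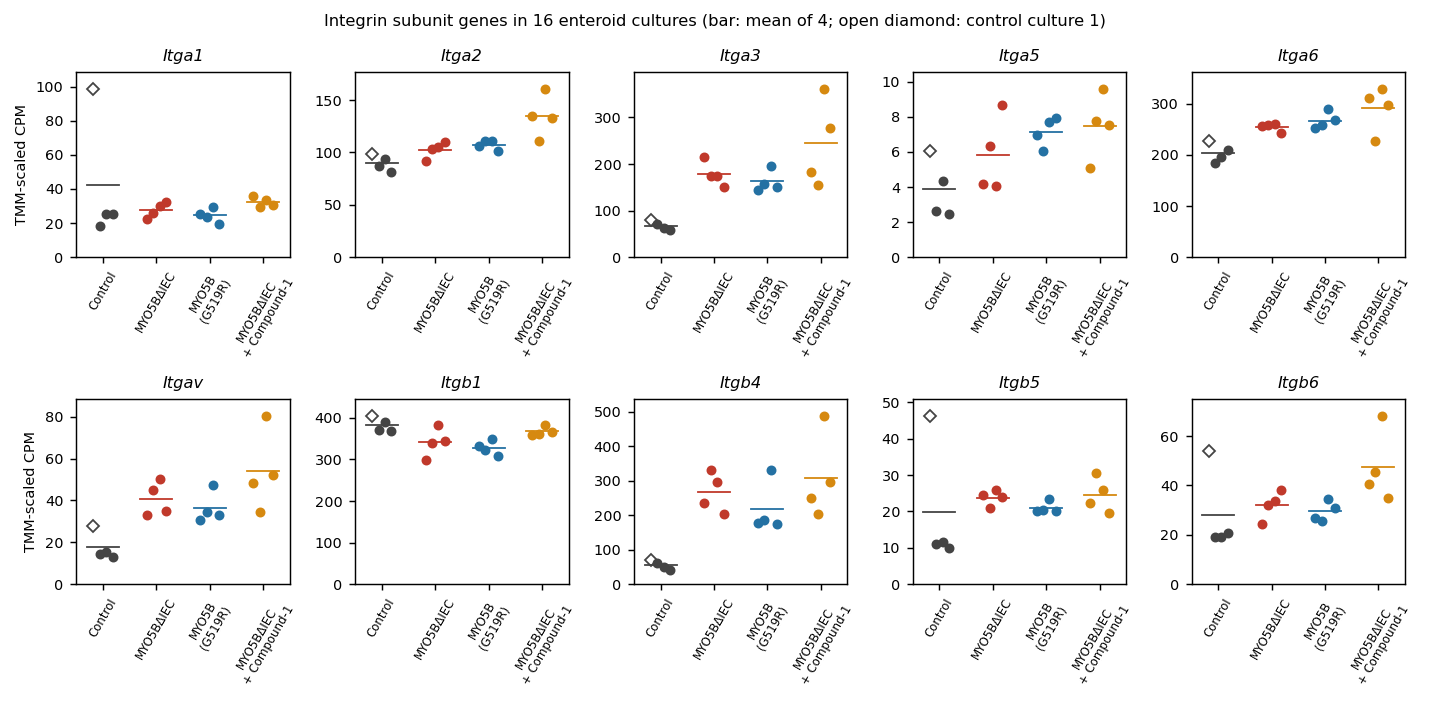
CPM of each integrin gene (linear axis from 0) in the 4 cultures of each group, with the group mean as a bar and control culture 1 as an open diamond. All cultures of the 3 MYO5B-deficient groups lie above all controls for Itgb4, Itga3 and Itgav, while control culture 1 is the highest of all 16 for Itga1 (98.7 CPM), Itgb1 (405 CPM) and Itgb5 (46.4 CPM).

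Itgb4 (ENSMUSG00000020758; chromosome 11, 115974709 to 116008412, plus strand, GRCm38) showed the largest rise of the 10. Control cultures 1 to 4 had 69.5, 61.3, 51.1 and 41.3 CPM. MYO5BΔIEC cultures had 235, 330.3, 296 and 204 CPM. MYO5B(G519R) cultures had 177, 186, 329.9 and 173 CPM. The lowest deficient culture was thus well above the highest control, and culture 3 of MYO5B(G519R) was far above the other 3 of its group. The log2 fold change was 2.26 ± 0.21 in MYO5BΔIEC (4.80-fold, adjusted p = 0.000852) and 1.96 ± 0.25 in MYO5B(G519R) (3.88-fold, adjusted p = 0.00192). By size it ranked 272 of 17951 genes from the top in MYO5BΔIEC and 238 of 17829 in MYO5B(G519R). Leaving out any 1 culture kept it between 2.14 and 2.38 in MYO5BΔIEC and between 1.68 and 2.11 in MYO5B(G519R), and all those fits passed. Itgb4 shares 537 exonic bases with B230344G16Rik, a long noncoding RNA on the opposite strand that had 680 counts over all 16 libraries; whether counting used strand is not given in the sources used here.

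Its only α partner, Itga6 (ENSMUSG00000027111; chromosome 2, 71745616 to 71858416, plus strand), moved much less. Controls had 228, 185, 196 and 209 CPM. MYO5BΔIEC cultures had 256, 258, 261 and 243 CPM. MYO5B(G519R) cultures had 253, 258, 289.9 and 268 CPM. All 8 deficient cultures were above all 4 controls, by small steps. The log2 fold change was 0.32 ± 0.13 in MYO5BΔIEC (adjusted p = 0.0794) and 0.39 ± 0.11 in MYO5B(G519R) (adjusted p = 0.0311). The MYO5B(G519R) call was lost with the trend of fold change on gene length removed (adjusted p = 0.126), without a count filter (adjusted p = 0.0619) and when any of 6 of the 8 cultures was left out. In MYO5BΔIEC the same gene passed with DESeq2 (adjusted p = 0.0246) and with limma on log2(FPKM + 1) (adjusted p = 0.0401), and by edgeR without control culture 1 (0.38, adjusted p = 0.0151).

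The ratio of Itga6 to Itgb4 within a culture, taken on log2(FPKM + 0.1), is nearly independent of library scaling. Controls held 2.54, 2.33, 2.95 and 3.88 Itga6 FPKM per Itgb4 FPKM. MYO5BΔIEC cultures held 0.848, 0.608, 0.686 and 0.924, and MYO5B(G519R) cultures 1.11, 1.08, 0.684 and 1.20. In FPKM the balance thus went from an Itga6 excess in every control to an Itgb4 excess in every MYO5BΔIEC culture and to near parity in 3 of 4 MYO5B(G519R) cultures. Where it crosses parity depends on the gene lengths used, 9025 bases for Itga6 and 7015 for Itgb4. By raw counts, MYO5BΔIEC cultures 1 and 4 held more Itga6 (8558 and 8092) than Itgb4 (7853 and 6812). Cultures 2 and 3 held less (8616 and 7370 against 11021 and 8355). The shift between groups hardly depends on those lengths. The log2 ratio was lower by a mean of -1.92 and -1.53 (exact permutation test over 70 splits, two-sided p = 0.0286 each, the smallest this design allows; Benjamini-Hochberg over 11 ratios, 0.0393 and 0.0349).

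**Figure D3:**
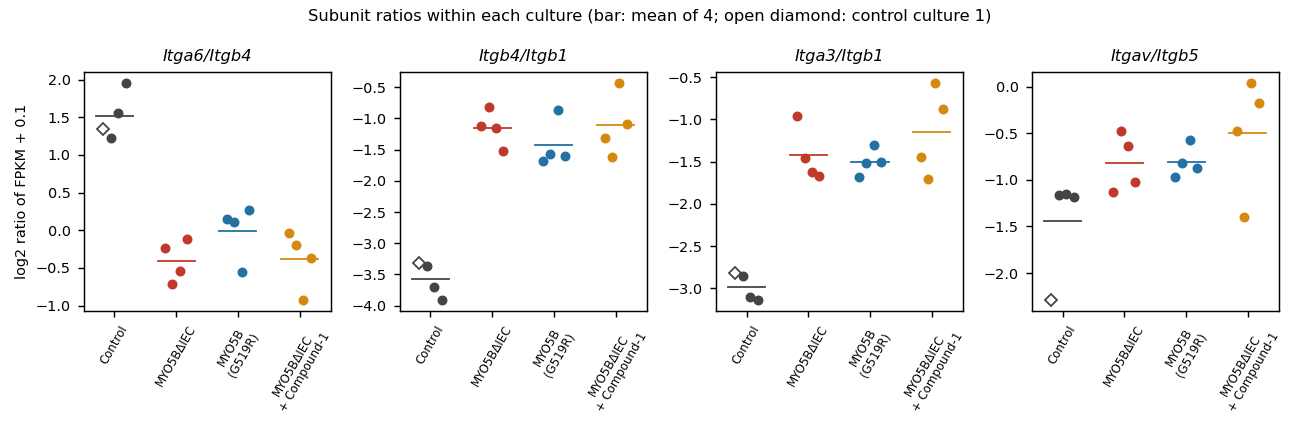
log2 ratio of FPKM + 0.1 for 4 subunit pairs in each culture, with group means as bars and control culture 1 as an open diamond. Itga6/Itgb4 is above 0 in all 4 controls and below 0 in all 4 MYO5BΔIEC cultures; Itgb4/Itgb1 and Itga3/Itgb1 are higher in every deficient culture than in any control.

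Itga3 (ENSMUSG00000001507; chromosome 11, 95044474 to 95076801, minus strand), the laminin-binding partner of Itgb1, was the next largest change. Controls had 79.8, 71.3, 63.0 and 57.8 CPM. MYO5BΔIEC cultures had 215, 174, 173 and 150.5 CPM. MYO5B(G519R) cultures had 145, 157, 197 and 151 CPM. No deficient culture came near the controls. The log2 fold change was 1.40 ± 0.16 in MYO5BΔIEC (2.63-fold, adjusted p = 0.0014) and 1.26 ± 0.14 in MYO5B(G519R) (2.39-fold, adjusted p = 0.00181). Every alternative fit and every fit with a culture left out kept both calls.

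Itgb1 itself (ENSMUSG00000025809; chromosome 8, 128685654 to 128733200, plus strand) did not follow its partners. Controls had 405, 372, 391 and 368 CPM. MYO5BΔIEC cultures had 298, 341, 382 and 344 CPM, overlapping with them. MYO5B(G519R) cultures had 333, 323, 349 and 307 CPM, all under the lowest control. The fitted log2 change was -0.16 (95% confidence interval -0.46 to 0.13, adjusted p = 0.397) and -0.23 (-0.47 to 0.01, adjusted p = 0.148), so that a change of the size seen for Itga3 lies outside both intervals. Itga3 per Itgb1 was accordingly 0.127 in controls (mean of 4; range 0.113 to 0.142), 0.380 in MYO5BΔIEC (0.314 to 0.516) and 0.354 in MYO5B(G519R) (0.311 to 0.404). Itgb4 per Itgb1 was 0.0853, 0.456 and 0.381. Of the 11 ratios examined, which share members and are not independent, 8 separated MYO5BΔIEC from control cultures and 9 separated MYO5B(G519R) from them, each at the smallest p the design allows (exact permutation p = 0.0286; adjusted 0.0393 and 0.0349).

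Itgav (ENSMUSG00000027087; chromosome 2, 83724397 to 83806916, plus strand), the α chain of the receptors for vitronectin and latent transforming growth factor β, rose in both models. Controls had 27.8, 14.5, 15.2 and 12.8 CPM. MYO5BΔIEC cultures had 33.2, 45.1, 50.3 and 35.0 CPM. MYO5B(G519R) cultures had 30.7, 34.4, 47.2 and 32.9 CPM. Control culture 1 was 1.96 times the mean of the other controls yet still below every deficient culture. By edgeR the log2 fold change was 1.23 ± 0.25 in MYO5BΔIEC (2.34-fold, adjusted p = 0.00624) and 1.05 ± 0.25 in MYO5B(G519R) (2.07-fold, adjusted p = 0.014). Without control culture 1 it was 1.53 and 1.39. Itgav shares 634 exonic bases with Gm13684 on the opposite strand, which had 78 counts in all.

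The β partners of Itgav gave a result that turned on 1 library. Itgb5 (ENSMUSG00000022817; chromosome 16, 33829665 to 33949338, plus strand) was at 46.4 CPM in control culture 1 and at 11.2, 11.6 and 10.1 CPM in the other controls. MYO5BΔIEC cultures had 24.5, 20.9, 26.0 and 23.9 CPM, and MYO5B(G519R) cultures 20.2, 20.4, 23.4 and 20.3 CPM. All 8 deficient cultures lay between control culture 1 and the other controls. Its log2 fold change was 0.27 ± 0.44 in MYO5BΔIEC (adjusted p = 0.686) and 0.09 ± 0.45 in MYO5B(G519R) (adjusted p = 0.91). Without control culture 1 it was 1.13 ± 0.14 (adjusted p = 0.000139) and 0.98 ± 0.12 (adjusted p = 0.000128).

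Itgb6 (ENSMUSG00000026971; chromosome 2, 60598292 to 60722643, minus strand) had the same shape. Control culture 1 was at 53.8 CPM and the others at 19.0, 19.3 and 20.7 CPM. MYO5BΔIEC cultures had 24.5, 32.1, 33.6 and 37.9 CPM, and MYO5B(G519R) cultures 26.9, 25.8, 34.5 and 30.8 CPM. This gave a log2 fold change of 0.19 ± 0.32 (adjusted p = 0.703) and 0.07 ± 0.33 (adjusted p = 0.907). Without control culture 1 it was 0.71 (adjusted p = 0.00387) and 0.62 (adjusted p = 0.00196). With all controls, then, Itgav passed the test and its partners Itgb5 and Itgb6 did not; without control culture 1 all 3 passed.

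The collagen receptors Itga1 and Itga2 are neighbours 20995 bases apart on chromosome 13, and neither passed in either model. Their fitted changes had opposite signs with all controls kept and the same sign without control culture 1. Whether the 2 genes differ from each other was not tested. Itga1 (ENSMUSG00000042284; 114953096 to 115101964, minus strand) had 98.7 CPM in control culture 1 and 18.5, 25.3 and 25.6 CPM in the other controls. MYO5BΔIEC cultures had 22.6 to 32.3 CPM and MYO5B(G519R) cultures 19.7 to 29.6 CPM. The deficient cultures overlapped with controls 2 to 4, and control culture 1 was 4.27 times the mean of those. The log2 fold change of -0.59 ± 0.45 (adjusted p = 0.367) in MYO5BΔIEC and -0.77 ± 0.47 (adjusted p = 0.252) in MYO5B(G519R) changed sign without that culture, to 0.27 (adjusted p = 0.225) and 0.12 (adjusted p = 0.588). Itga1 also shares 685 exonic bases with Gm49395 on the same strand, which had 638 counts in all.

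Itga2 (ENSMUSG00000015533; 114833081 to 114932100, minus strand) had 98.6, 87.1, 94.2 and 80.9 CPM in controls. MYO5BΔIEC cultures had 91.4 to 109.6 CPM and MYO5B(G519R) cultures 102 to 111 CPM, the latter all above the highest control. On the log2 scale the difference was 0.19 ± 0.12 (adjusted p = 0.278) and 0.25 ± 0.10 (adjusted p = 0.0963). Without control culture 1 the MYO5B(G519R) value was 0.33 (adjusted p = 0.0093). Differences in Itga2 were thus small beside those of Itga3 and Itgb4 in both models.

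Itga5 (ENSMUSG00000000555; chromosome 15, 103344286 to 103366763, minus strand), the fibronectin receptor chain, was the least abundant member in controls. It was at 6.05, 2.66, 4.36 and 2.48 CPM there. MYO5BΔIEC cultures had 4.19, 6.35, 4.07 and 8.65 CPM, and MYO5B(G519R) cultures 6.96, 6.04, 7.70 and 7.93 CPM. Control culture 1 overlapped with both models. The fitted log2 change was 0.59 ± 0.35 (adjusted p = 0.233) and 0.88 ± 0.28 (adjusted p = 0.046), and the MYO5B(G519R) call was lost with 7 of the 8 cultures left out in turn (adjusted p up to 0.112). Without control culture 1 both passed, at 0.88 (adjusted p = 0.0478) and 1.20 (adjusted p = 0.00183). Counting all members, 7 of 10 were called higher in MYO5BΔIEC and 8 of 10 in MYO5B(G519R) once control culture 1 was left out; in those fits 21.2% of 17783 and 24.0% of 17647 genes were called higher.

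**Figure D4:**
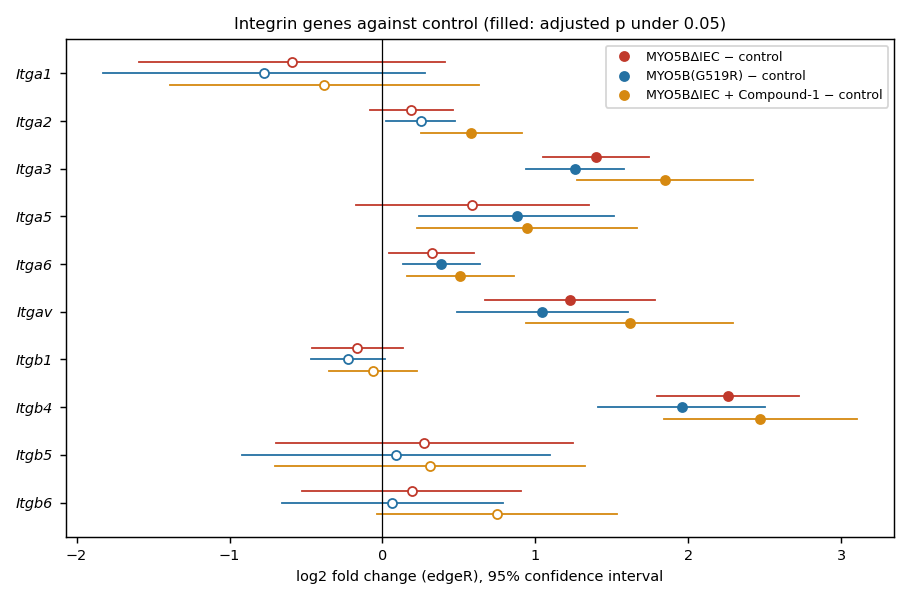
log2 fold change of each integrin gene against control with its 95% confidence interval in the 3 MYO5B-deficient groups; filled circles passed at an adjusted p under 0.05. Itgb4, Itga3 and Itgav are filled in all 3 groups, and the intervals of Itga1, Itgb5 and Itgb6 are wide and cross 0.

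Expressed as shares, Itgb4 made up 7.09% ± 1.09 of the summed FPKM of the 4 β genes in controls, 28.5% ± 4.16 in MYO5BΔIEC and 25.0% ± 5.17 in MYO5B(G519R) (SD, n = 4). Itgb1 went from 84.8% to 63.0% and 66.7%. Among the 6 α genes the share of Itga6 was 43.9% ± 3.36 in controls and 35.2% ± 0.915 in MYO5BΔIEC, while Itga3 went from 23.0% ± 2.07 to 38.8% ± 4.22. Itga3 therefore took the first place among α genes from Itga6 in the mean of MYO5BΔIEC cultures, while in MYO5B(G519R) Itga6 (37.4%) and Itga3 (35.8%) were close. The summed α genes were at 50.6 ± 7.41 FPKM in controls, 79.9 ± 4.00 in MYO5BΔIEC and 78.8 ± 7.24 in MYO5B(G519R), without overlap. The summed β genes were at 109 ± 13.6, 132 ± 14.9 and 121 ± 15.6 FPKM, and these overlapped.

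The second question was whether Compound-1 moves these genes in MYO5BΔIEC enteroids. No member passed the test against vehicle, and no gene of 18037 did (0%); at an unadjusted p under 0.05 there were 1355 genes, 2 of them members, and DESeq2 called 91 genes, none a member. Compound-1 cultures had 249, 202, 488 and 297 CPM of Itgb4 against 204 to 330.3 CPM with vehicle. They had 184, 155, 361 and 278 CPM of Itga3 against 150.5 to 215 CPM. Culture 3 of the Compound-1 group held the highest value of all 16 cultures for 7 of the 10 members. The log2 difference was 0.18 for Itgb4 (95% confidence interval -0.39 to 0.75), 0.42 for Itga3 (-0.10 to 0.95) and 0.36 for Itgav (-0.16 to 0.89), so neither no difference nor a rise of over 1.5-fold is outside these intervals. Without culture 3 the difference was -0.13 for Itgb4, 0.18 for Itga3 and 0.11 for Itgav.

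The smallest unadjusted p-values were those of Itga2 and Itgb6. Itga2 had 135, 111, 161 and 133 CPM with Compound-1, all above the vehicle cultures (highest 109.6 CPM), a log2 difference of 0.37 ± 0.14 (edgeR unadjusted p = 0.0196, adjusted p = 0.578); it was the only member without overlap, where 1.59% of all genes were higher without overlap, 1.27% were lower and 2.86% were either. Itgb6 had 40.7, 45.3, 68.2 and 35.1 CPM, of which culture 4 overlapped with vehicle (highest 37.9 CPM), a log2 difference of 0.53 ± 0.21 (edgeR unadjusted p = 0.0285, adjusted p = 0.612). For the remaining 8 members the log2 difference ran from 0.02 (Itgb5) to 0.42 (Itga3). All 10 differences were above 0, with a median of 0.26 against 0.00 for all genes, but without culture 3 of the Compound-1 group 8 of 10 were, and Itgb6 was at 0.31. None of the 11 subunit ratios separated the groups (smallest exact permutation p = 0.0857, adjusted 0.471); Itga6 per Itgb4 was 0.787 with Compound-1 and 0.767 with vehicle.

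Against controls, Compound-1-treated MYO5BΔIEC enteroids had 6 of 10 members called higher, where 15.7% of 17937 genes were. Itgb4 was at a log2 fold change of 2.47 ± 0.29 (adjusted p = 0.00398), Itga3 at 1.85 ± 0.26 (adjusted p = 0.00398) and Itgav at 1.62 ± 0.31 (adjusted p = 0.00597). Itga2 (0.58, adjusted p = 0.0162), Itga6 (0.51, adjusted p = 0.035) and Itga5 (0.95, adjusted p = 0.0498) also passed. All 4 treated cultures were above all 4 controls for Itgb4, Itga3, Itgav and Itga2. The calls of Itga5 and Itga6 were each lost in 6 of 8 fits with 1 culture left out, and that of Itga2 in 2 of 8 (adjusted p up to 0.0582). Without control culture 1, 9 of 10 members were called higher, where 22.9% of 17718 genes were. Itgb5 then went from 0.31 (adjusted p = 0.646) to 1.19 (adjusted p = 0.00109), and Itgb6 from 0.75 (adjusted p = 0.136) to 1.29 (adjusted p = 0.00166). Itga1 turned from -0.38 (adjusted p = 0.566) to 0.51 (adjusted p = 0.0258). Of the 11 ratios, 6 did not overlap with controls (exact permutation p = 0.0286), and after adjustment none passed (0.0524). In every comparison, the adjusted value at this smallest possible p depends only on how many of the 11 ratios reach it. With 6 of 11 none can pass, however large the differences are. The mean log2 difference was -1.90 for Itga6/Itgb4 and 2.46 for Itgb4/Itgb1, against -1.92 and 2.42 in MYO5BΔIEC with vehicle.

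The models were also compared directly. No member differed between MYO5B(G519R) and MYO5BΔIEC (adjusted p from 0.838 to 0.916, none at an unadjusted p under 0.05), where 1 of 17943 genes (0.00557%) was called by edgeR, 4 by DESeq2 and 772 had an unadjusted p under 0.05. The log2 difference was -0.30 for Itgb4 (95% confidence interval -0.80 to 0.20), -0.13 for Itga3 (-0.44 to 0.17), 0.07 for Itga6 (-0.15 to 0.29) and 0.29 for Itga5 (-0.25 to 0.84). These intervals leave room for a difference of more than 1.5-fold for Itgb4 and Itga5. No member separated the models without overlap, where 0.83% of genes were higher and 1.02% lower. The calls that Itga6 and Itga5 reached in 1 model only are therefore not shown to differ between the models.

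The promoters of Itga3 and Itgav, which rose, and of Itgb1, which did not pass, are shown because each of these α chains can pair with Itgb1. Sequences are from RefSeq (GRCm38.p6), in which 8 of the 10 members matched (all but Itga6 and Itgb4), and run from 250 bases before to 50 bases after an annotated start, 5′ to 3′ on the gene's strand. Both strands were searched for GGGCGG (the GC box bound by SP1), GGAATG (the core bound by TEAD factors) and TGANTCA (the AP-1 site), with no overlap between matches in the windows printed; capitals mark the matches. The windows are chr11:95076665-95076964 for Itga3 (minus strand, its RefSeq start lying 87 bases inside the gene model above), chr2:83724147-83724446 for Itgav (plus strand) and chr8:128685404-128685703 for Itgb1 (plus strand).
Itga3: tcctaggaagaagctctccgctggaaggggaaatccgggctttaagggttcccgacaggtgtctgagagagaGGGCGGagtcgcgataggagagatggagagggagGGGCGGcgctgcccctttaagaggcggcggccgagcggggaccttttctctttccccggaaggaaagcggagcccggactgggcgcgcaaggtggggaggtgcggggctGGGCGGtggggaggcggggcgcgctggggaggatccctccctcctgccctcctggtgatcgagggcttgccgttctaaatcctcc
Itgav: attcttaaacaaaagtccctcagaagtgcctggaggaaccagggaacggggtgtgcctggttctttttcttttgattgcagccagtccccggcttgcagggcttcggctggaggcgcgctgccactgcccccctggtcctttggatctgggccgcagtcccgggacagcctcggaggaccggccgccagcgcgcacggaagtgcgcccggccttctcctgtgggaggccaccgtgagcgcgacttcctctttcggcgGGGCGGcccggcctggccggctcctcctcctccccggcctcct
Itgb1: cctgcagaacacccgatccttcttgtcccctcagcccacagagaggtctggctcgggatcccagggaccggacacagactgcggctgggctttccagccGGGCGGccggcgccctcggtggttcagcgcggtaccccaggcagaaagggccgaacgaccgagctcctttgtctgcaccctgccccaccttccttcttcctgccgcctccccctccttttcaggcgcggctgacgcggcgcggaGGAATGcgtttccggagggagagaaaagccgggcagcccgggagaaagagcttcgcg
Itga3 held 3 GGGCGG matches and neither of the other motifs in this window. Itgav held 1 GGGCGG match. Itgb1 held 1 GGGCGG and 1 GGAATG match. GGGCGG occurs in 35.7% of all 32851 promoter windows of this length, GGAATG in 14.7% and TGANTCA in 7.81%, so each motif found is common. The only TGANTCA match of the 8 members was in the window of a second, internal Itga3 start.

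For each member the gene with the most similar profile was sought among 13545 genes with a mean of at least 1 CPM, as the smallest root mean square difference of log2 CPM, centred on the control mean, over the 16 cultures. For Itgb4 this was Lama5, the laminin α chain of the epithelial basement membrane (0.199), followed by Atg9b (0.204) and Plec (0.219), the gene of the plectin linker. Control cultures averaged 34.6 CPM of Lama5, against 167 CPM in MYO5BΔIEC and 144 CPM in the MYO5B(G519R) group, and Plec averaged 104, 446 and 371 CPM. The remaining closest genes were Nbeal2 for Itga3 (0.109), Tgfa for Itgav (0.152), Aebp2 for Itga6 (0.0774), Rabgap1 for Itgb1 (0.0782), F2rl1 for Itga2 (0.106), Nt5dc3 for Itga5 (0.255), Dennd4a for Itga1 (0.288), Plagl2 for Itgb5 (0.207) and Rai14 for Itgb6 (0.190). Among the members, Itga2 and Itga6 were nearest to each other (0.144), then Itga3 and Itgav (0.276) and Itgb5 and Itgb6 (0.329). The nearest member to Itgb4 was Itga3 at 0.668, a measure that is not scaled to the size of a gene's change. Itga3 ranked 177 by closeness to Itgb4 among all these genes. The nearest member ranked 576 for Itga1, 1423 for Itga5 and 5322 for Itgb1. The 16 points share libraries and the control cultures, and the measure is a description.

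The lists of genes around the integrins were drawn up with earlier results of these data known. Among these lists, ligands had the highest median change in both models. Of 24 ligand genes, 17 could be tested, and 17 were called higher in MYO5BΔIEC and 14 in MYO5B(G519R), none lower. Over all genes tested, 13.5% were called higher and 13.8% lower in MYO5BΔIEC, and 13.1% and 13.7% in MYO5B(G519R). The ligand medians on the log2 scale were 1.78 and 1.73. The ligands include chains of the laminins that Itga3 and the pair of Itga6 and Itgb4 bind: Lama5 (2.28 ± 0.26, adjusted p = 0.0014), Lama3 (2.88 ± 0.56, adjusted p = 0.0052) and Lamb3 (0.85 ± 0.24, adjusted p = 0.026) in MYO5BΔIEC. Nid1, the laminin-binding nidogen, had the largest rise at 3.51 ± 0.52, from 1.30 to 14.7 CPM. Fn1, the ligand of Itga5, was called as well (adjusted p = 0.017), but at 0.362 CPM in MYO5BΔIEC and 0.0318 CPM in controls, the latter below what 3 counts amount to. Fn1 could pass the count filter only through the MYO5BΔIEC cultures, and it counts among the 17 called higher there. With 1 culture left out the number of ligands called was 10 to 16 in MYO5BΔIEC and 9 to 17 in MYO5B(G519R).

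**Figure D5:**
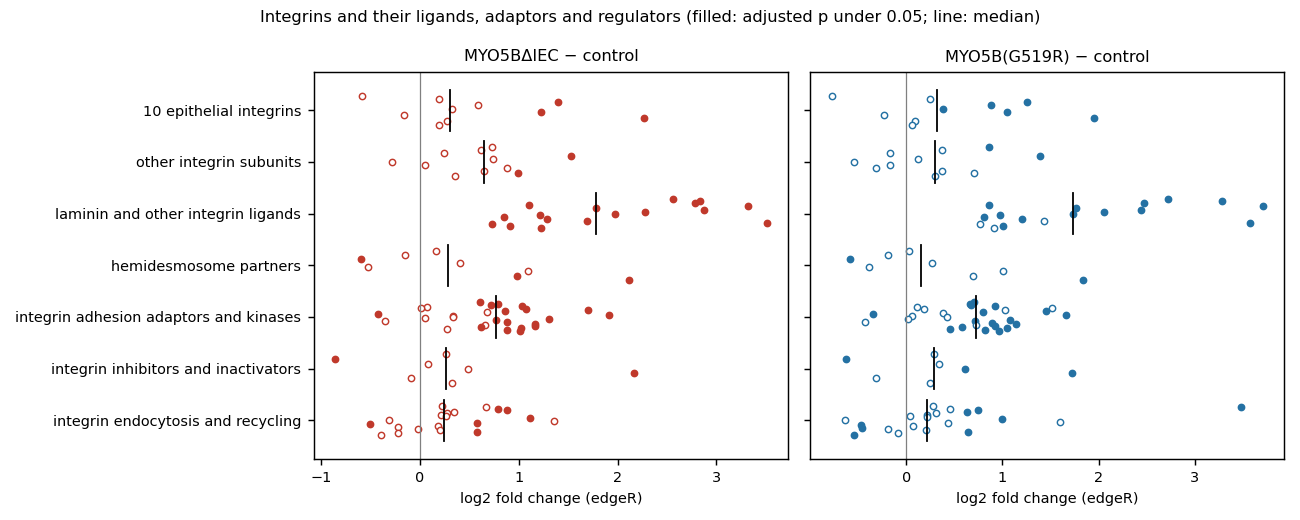
log2 fold change against control in MYO5BΔIEC (left) and MYO5B(G519R) (right) of the 10 integrins and of the tested genes of 6 lists around them; filled circles passed at an adjusted p under 0.05 and lines mark medians. The ligand list has the highest medians, 1.78 and 1.73, against 0.30 and 0.32 for the integrins.

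Hemidesmosome partners split. Of 8 genes, 2 were higher and 1 lower in MYO5BΔIEC, and 1 was higher and 1 lower in MYO5B(G519R), with medians of 0.29 and 0.15. Over all genes tested, 27.4% and 26.8% were called in either direction. Plec rose by 2.11 ± 0.30 (adjusted p = 0.0017) and 1.84 ± 0.34 (adjusted p = 0.0053), and Dst, a plakin that also links Itgb4 to filaments, by 0.98 ± 0.20 in MYO5BΔIEC (adjusted p = 0.0059). Tetraspanin Cd63 fell, with a log2 fold change of -0.60 and -0.58. Col17a1, the transmembrane collagen of skin hemidesmosomes, was at 0.26 CPM in controls and 0.554 CPM in MYO5BΔIEC (adjusted p = 0.23), and Cd151, the tetraspanin partner of Itga3 and Itga6, was at 112 and 100.1 CPM (adjusted p = 0.39).

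Adaptors and kinases of integrin adhesions inside the cell were mostly higher. In MYO5BΔIEC 17 of 27 tested were called higher and 1 lower, and in MYO5B(G519R) 17 of 28 and 1, with medians of 0.77 and 0.72. The shares over all genes were 13.5% higher and 13.8% lower in MYO5BΔIEC, and 13.1% and 13.7% in MYO5B(G519R). Ptk2b, a focal adhesion kinase relative, rose by 1.30 ± 0.15 (adjusted p = 0.0014) in MYO5BΔIEC. Tln1, the talin that activates integrins, rose by 1.17 ± 0.19 (adjusted p = 0.0027), whereas Ptk2, focal adhesion kinase itself, was at 0.05 ± 0.15 (adjusted p = 0.83). Lims1 was the gene called lower (-0.43 ± 0.14, adjusted p = 0.044). Tln1 and Ptk2, like Lama3, Lamb3, Col17a1 and Cd151 above, were chosen after their values were seen.

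Inhibitors and trafficking genes gave smaller counts. Of 7 inhibitors tested, Kank3 was higher (2.16 ± 0.33, adjusted p = 0.0021) and Itgb1bp1, which competes with talin for Itgb1, was lower (-0.86 ± 0.21, adjusted p = 0.012) in MYO5BΔIEC; in MYO5B(G519R) 2 were higher and 1 lower. Of the endocytosis and recycling genes 5 of 20 were called higher and 1 lower in MYO5BΔIEC, and 5 of 21 and 3 in MYO5B(G519R), with medians of 0.24 and 0.22. Over all genes, 27.4% and 26.8% were called in either direction, and the MYO5BΔIEC counts of both lists lay near that share. Rab11fip1, a Rab11 effector of the compartment on which myosin Vb acts, rose by 1.11 ± 0.13 (adjusted p = 0.0014), and Eps8 rose by 0.88 ± 0.16 (adjusted p = 0.004). In Compound-1 against vehicle no gene of the 6 lists was called by edgeR, and 1 ligand was by DESeq2.

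The other 17 integrin subunits were low. Only 8 reached a group mean of 1 CPM, and 6 were at 0 in at least 1 library. Of 11 tested, 2 were called higher in each model: Itga7 (4.24 CPM in controls, 12.2 in MYO5BΔIEC, 11.1 in MYO5B(G519R)) in both, Itgb2l (4.49 and 8.90 CPM) in MYO5BΔIEC and Itga10 (1.61 and 2.95 CPM) in MYO5B(G519R). With 1 culture left out the counts were 0 to 2 and 0 to 3. Over all genes, 13.5% and 13.1% were called higher in the 2 models with all cultures kept. Itga2b, Itga4, Itga9, Itgae and Itgam, platelet and leukocyte subunits among them, had group means between 0.722 and 2.46 CPM, and none was called. The leukocyte β chain Itgb2 never exceeded a group mean of 0.045 CPM.

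Markers of other epithelial cell types also differed between the groups. The summed stem cell markers were at 2246 to 6286 CPM among controls, 821 to 1973 CPM among MYO5BΔIEC cultures, 1164 to 2499 CPM among MYO5B(G519R) cultures and 511 to 1708 CPM with Compound-1. A single gene made up 5710 of the 6286 CPM of the highest control. Of the 5 stem genes, 1 was called lower and none higher in each of the 3 deficient groups against control. The median log2 fold changes of the stem genes were 0.02, 0.30 and -0.30. The summed proliferation markers were at 1651 to 2057, 1124 to 1428, 1331 to 1687 and 738 to 1500.2 CPM. Goblet cell markers, in contrast, summed to 1084 to 1535 CPM among controls, below every MYO5BΔIEC (1744 to 2164 CPM), MYO5B(G519R) (1701 to 2145 CPM) and Compound-1 (1748 to 5445 CPM) culture. A single goblet gene reached up to 889 CPM in controls and up to 3591 CPM with Compound-1. Of the 5 goblet genes, 2 were called higher in each of the 3 deficient groups against control, and 1 was called lower in MYO5B(G519R). The enterocyte, Paneth, enteroendocrine and tuft sums of each deficient group overlapped with those of the 4 controls. For enterocytes that overlap rested on control culture 1 in MYO5B(G519R) (6160 to 9597 CPM) and with Compound-1 (6180 to 8437 CPM), which were below the 13271 CPM of the lowest other control. For Paneth cells it rested on that culture (3190 CPM) in all 3 deficient groups, whose highest sum was 4544 CPM against 6496 CPM in the lowest other control. Single enterocyte genes went both ways with all controls kept. Of 10, 3 were called higher and none lower in MYO5BΔIEC, and 2 higher and 1 lower in MYO5B(G519R). With Compound-1 against control, 3 were higher and 3 lower. The median log2 fold changes of the enterocyte genes were 0.62, 0.05 and -0.48. The lowest stem and proliferation sums were those of Compound-1 culture 3, the culture with the highest value of 7 integrin genes. Culture 3 of MYO5B(G519R), with the highest Itgb4 of its group, also held the lowest stem (1164 CPM) and proliferation (1331 CPM) sums of that group. The part of these markers in the integrin results was not tested. Fold changes also rose with gene length over all genes (Spearman correlations of 0.339 and 0.323 for the MYO5BΔIEC and MYO5B(G519R) comparisons across 13545 genes, which share the libraries); with that trend removed Itgb4 was at 2.12 and 1.82, Itga3 at 1.29 and 1.16 and Itgav at 1.01 and 0.87, all passing.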

How the data were processed

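Poly-A libraries of 16 enteroid cultures were sequenced by Novogene. Mapping of read pairs by the authors used STAR 2.5 and GRCm38/mm10, and the counts they deposited are HTSeq 0.6.1 reads per gene; the deposited FPKM values were calculated by the authors from count and gene length. Strand and annotation version are not given in the sources used here. Columns were matched to samples by name. Here, groups were compared pairwise with edgeR 4.0.16 in R 4.3.3 (TMM, at least 10 counts in at least 2 of 8 libraries, quasi-likelihood F test, Benjamini-Hochberg over all genes, threshold 0.05), tested on simulated counts. CPM are TMM-scaled over 16 libraries. Subunit ratios of log2(FPKM + 0.1) were compared by exact permutation. Alternatives were DESeq2 1.42.0 and its size factors, other filters, all groups in 1 fit, mitochondrial genes out of the library size, a replicate block, length trend removed, limma 3.58.1 on log2(FPKM + 1) and log2(FPKM + 0.1), count ratios and each culture left out. Members and lists were chosen with earlier results of these data known. Named genes were all members and, per list, at most 2 with the largest called rise and 2 with the largest called fall in MYO5BΔIEC, at a mean of at least 1 CPM over all 16 cultures and without overlap (Fn1 reached this mean through the Compound-1 cultures), besides genes said to be chosen afterwards, and other subunits reaching 1 CPM. Some genes and a marker list that this rule or design would name are not reported here. Per the study, the 4 cultures of a group came from 4 mice. Whether groups share mice is not given in the sources used here. Intervals cover counting error and spread between these cultures only.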

Additional observations from a re-analysis of the deposited data

Results flagged for a closer look

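The 10 genes and 11 ratios gave 84 groups of 4 cultures, which share members and libraries and are not independent. For independent groups, chance gives about 1 in 20 beyond Dixon's 95% critical value. In 10 of the 84 a value stood apart from the other 3 by more than that critical value allows. Control culture 1 accounted for 6 of them: it was the highest control for Itga1 (98.7 CPM), Itgav (27.8 CPM), Itgb5 (46.4 CPM) and Itgb6 (53.8 CPM), the highest for the log2 ratio Itgav/Itgb1 (-5.21) and the lowest for the log2 ratio Itgav/Itgb5 (-2.29). MYO5B(G519R) culture 3 was the highest of its group for Itgb4 (329.9 CPM), for Itgb5 (23.4 CPM) and for the log2 ratio Itgb4/Itgb1 (-0.86). MYO5BΔIEC culture 4 was the highest of its group for the log2 ratio Itga1/Itgb1 (-5.52).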

How the results depend on the processing

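Itgb4, Itga3 and Itgav passed in all 3 comparisons with control under the 10 alternatives and in the 8 fits with 1 culture left out. With 1 culture left out, members called numbered 3 to 7 (MYO5BΔIEC against control), 3 to 8 (MYO5B(G519R) against control) and 3 to 9 (Compound-1 against control), the highest each time without control culture 1, and ratios separating the groups 8 to 10, 9 to 10, 0 to 4 (Compound-1 against vehicle), 6 to 8 (Compound-1 against control) and 0 to 3 (between the models). The other alternatives called 3 to 4, 4 to 6 and 4 to 6 members. Directions turned for genes that had not passed. With the length trend removed, Itgb6 was at -0.030 in MYO5B(G519R) and Itgb5 at -0.0092 in Compound-1 against vehicle, where the replicate block gave -0.0018. With 1 culture left out, Itga1 lay between -0.84 and 0.27 for MYO5BΔIEC, between -1.02 and 0.12 for MYO5B(G519R) and between -0.63 and 0.51 for Compound-1, each against control; Itgb5 from -0.13 to 0.98 and Itgb6 from -0.084 to 0.62 in MYO5B(G519R); Itgb4 from -0.13 to 0.34 and Itgb5 from -0.11 to 0.11 in Compound-1 against vehicle; and Itgb1 from -0.11 to 0.011 between the models. In no pair of groups were the correlations of all 4 same-numbered cultures over 0.1 (range -0.228 to 0.571). All 4 were above 0 for MYO5BΔIEC with MYO5B(G519R) (0.0691 to 0.571) and for MYO5B(G519R) with Compound-1 (0.0720 to 0.430). In the first of these pairs 3 of 4 were over 0.1, in the second 2 of 4, and in each 2 of 4 were best with their own number. With the block no member passed between MYO5BΔIEC and MYO5B(G519R) either. A replicate block ended the calls of Itga6 in MYO5B(G519R) (edgeR adjusted p = 0.0883) and of Itga6 (0.0589) and Itga5 (0.0691) in Compound-1 against control. Beyond those given above, the call of Itga6 in Compound-1 against control was lost without a filter (0.0578) and with the length trend removed (0.126), and that of Itga5 with the trend removed (0.0562) and with limma on log2(FPKM + 0.1) (0.0555). Among the lists, the count of other integrin subunits called went from 2 to 0 or 1 with limma or the length trend removed in MYO5BΔIEC, that of inhibitors from 3 to 5 with DESeq2 in MYO5B(G519R), and that of endocytosis genes from 9 to 14 with all groups in 1 fit in Compound-1 against control. Other subunits called also numbered 1 in place of 2 in MYO5B(G519R) without a filter, with all groups in 1 fit and with limma on log2(FPKM + 0.1), and 0 or 1 in Compound-1 against control without a filter, with the block, the length trend removed or limma; inhibitors numbered 1 in MYO5B(G519R) without a filter and 2 in Compound-1 against control without a filter or with the block, and hemidesmosome genes 1 there with the trend removed. Without a filter, 12 genes passed in Compound-1 against vehicle and 2 between the models. The cause was not tested. The lowest count of a member in any library was 67.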
